A study of Homo sapiens with 12 samples.

Results

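ATP-dependent chromatin remodellers were followed in K562 cells upon USP7 inhibition. A list of 42 genes was taken, by gene symbol, out of the 60609 genes in the count tables. It holds 22 subunits of the SWI/SNF complexes, 8 CHD proteins, 7 subunits of the ISWI complexes, 3 large ATPases of the INO80 family, and the pair ATRX and HELLS. Of these, 17 carry the ATPase motor themselves and 25 are partner subunits. The members were listed for their family, and earlier results of these data were known when the list was made.

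Chromatin remodellers use the energy of ATP to slide, eject or exchange nucleosomes, and so set how accessible DNA is to transcription, replication and repair. Each family has its own motor and its own partners: SWI/SNF (BAF) complexes mostly open chromatin at enhancers and promoters, ISWI complexes space nucleosomes evenly, CHD proteins act at transcribed genes or, within NuRD, together with histone deacetylases, and the INO80 family handles the histone variant H2A.Z. Many subunits come as paralogs that take the same place in the complex, and SWI/SNF subunits are among the chromatin proteins most often mutated in cancer.

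K562 is an established line of human erythroleukemic cells that carry the BCR-ABL fusion. K562 cells were treated for 48 h with the solvent DMSO (3 libraries) or with 10 µM FT671 (3 libraries), which blocks the deubiquitinating enzyme USP7, and total RNA depleted of ribosomal RNA was sequenced. The study's text speaks of independent experiments, and p-values measure the spread between these samples. The 6 chromatin immunoprecipitation samples of the series were not analysed here.

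Total counts ranged from 5320245 to 14250500 in DMSO and from 4555220 to 11437804 in FT671 libraries, so that 3 counts, taken as the limit of detection, correspond to between 0.211 and 0.659 CPM (counts per 1000000 counts of the library). Such limits cover counting error only. The levels given below use totals scaled by TMM. Mitochondrially encoded genes held 2.59% to 2.82% of the counts in DMSO and 1.47% to 1.76% in FT671, and their part in the results was not tested. The mRNA of USP7 itself was at 118, 107 and 131 CPM in DMSO and at 29.2, 34 and 35.7 CPM in FT671. The summed CPM of 12 erythroid and leukemia genes of K562 was 1820 to 1920 in DMSO and 1600 to 1660 in FT671, with all 12 above the limit in at least 1 library. Genes of other lineages were followed as lists too. The summed CPM was 19 to 23.6 in DMSO and 26.8 to 32.8 in FT671 for 8 lymphocyte genes (CD2 and MS4A1 at 0 in every library), 59.6 to 63 and 76.6 to 79.8 for 6 monocyte genes (LYZ holding most of it), 2.37 to 2.9 and 2.58 to 2.88 for 6 fibroblast genes (COL3A1, LUM and PDGFRA at 0), and 584 to 708 and 742 to 770 for 5 epithelial genes, mostly KRT8, KRT18 and KRT19. The part of these lists in the results was not tested.

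Of the 42 remodeller genes, 16 fell and 9 rose upon FT671, whereas 17 did not pass the test (edgeR's quasi-likelihood test over 13895 genes, Benjamini-Hochberg adjusted p under 0.05). The share that fell was 38.1%, against 26.5% of all genes tested, and the share that rose was 21.4%, against 23.6%. At the stricter adjusted p of 1e-05, ARID2 and BCL7B fell, against 4.13% of all genes, and 0 members rose, against 1.79%. With an unadjusted p under 0.05, 10 members were higher, and DESeq2 called 2 members higher at 1e-05. In bulk RNA a change in the number of cells of one state and a change of RNA per cell cannot be told apart.

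All 42 genes passed the filter on low counts, from SMARCA1 at a mean of 3.23 CPM to SMARCC1 at 828 CPM. Every FT671 library lay below every DMSO library for 21 members, where 30.3% of all genes did so, and above for 9 members, where 26.8% did so. The remaining 12 members had overlapping libraries. The median log2 fold change was -0.12 over the members and -0.01 over all genes tested, with an SD of 0.04 between FT671 libraries for the median of the members. The counts in each direction depended on the scaling. When the trend of all genes with exonic length was taken out, 9 members were lower and 14 higher, with a median of -0.001, whereas 23.9% of all genes were lower and 27.7% higher. When libraries were scaled by their totals alone, 16 members were lower and 4 higher. Single libraries mattered as well: 8 members were lower and 3 higher without FT671 replicate 2, 10 lower and 5 higher without FT671 replicate 1, and 4 higher without FT671 replicate 3, DMSO replicate 1 or DMSO replicate 2, whereas 14 were lower and 9 higher without DMSO replicate 3.

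**Figure D1:**
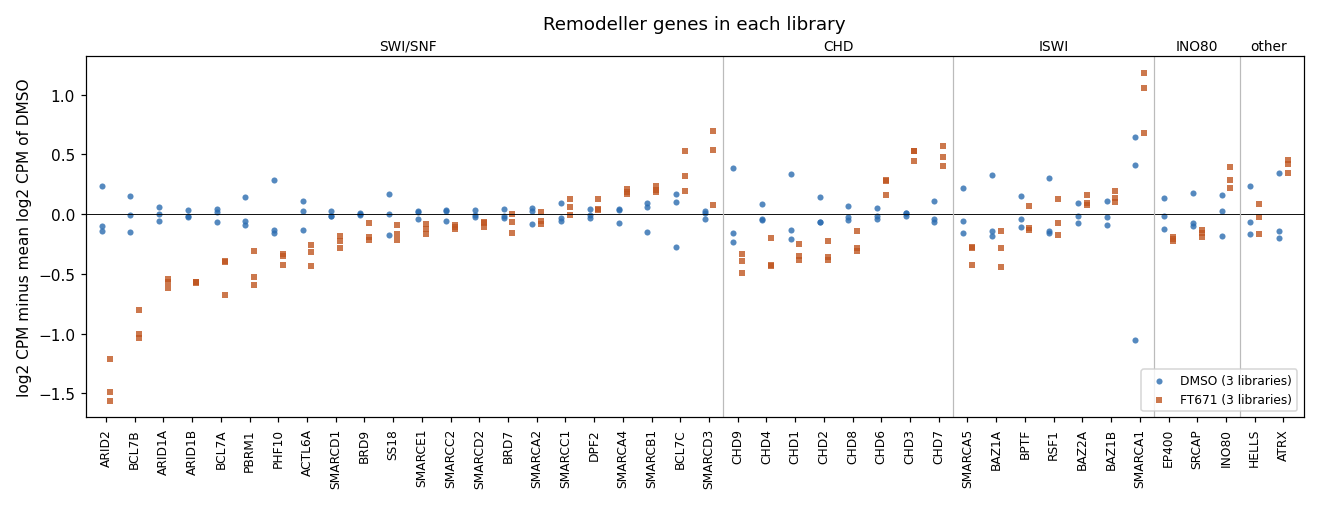
Each of the 42 remodeller genes in each library, as log2 CPM minus the mean log2 CPM of the 3 DMSO libraries of that gene, with DMSO libraries as blue points and FT671 libraries as red squares. Within each family genes are ordered by their fold change, and the FT671 libraries of ARID2 and BCL7B sit farthest below their DMSO libraries.

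**Figure D2:**
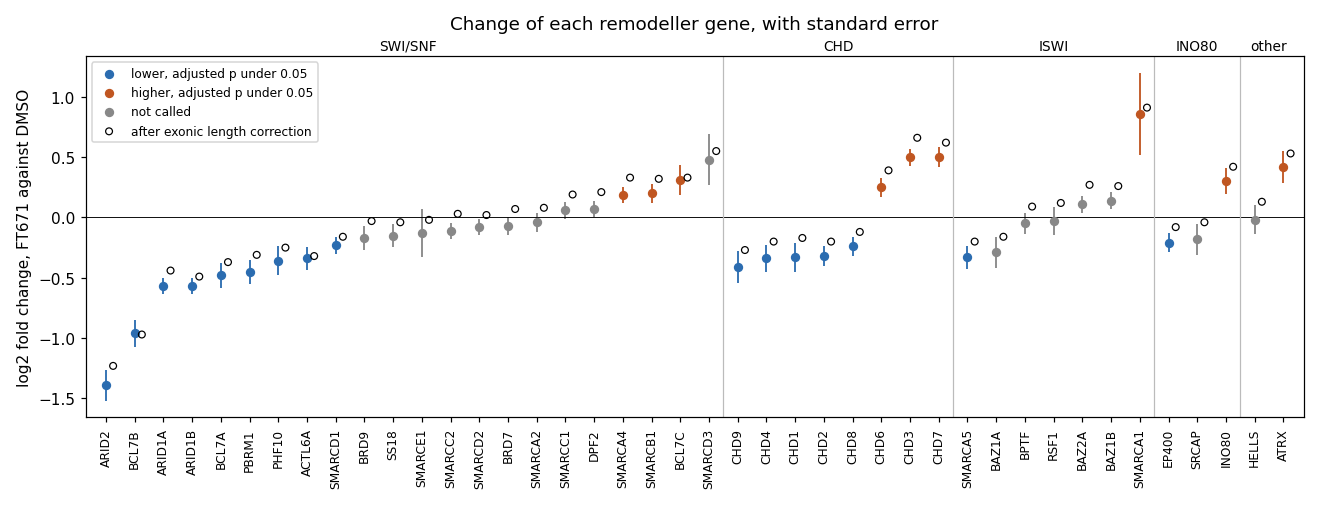
The log2 fold change (FT671 against DMSO) of each remodeller gene with its standard error, coloured by the call at an adjusted p of 0.05, with open circles for the value after the exonic length correction. The range runs from -1.39 for ARID2 to 0.86 for SMARCA1, and the length correction moves most members upward.

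SWI/SNF was the largest family, and 9 of its 22 members fell, 3 rose and 10 did not pass the test, with a median log2 fold change of -0.14. The shares were 40.9% lower and 13.6% higher, against 26.5% and 23.6% of all genes tested. ARID1A, ARID1B, ARID2, PBRM1, PHF10, ACTL6A, BCL7A, BCL7B and SMARCD1 fell, whereas the ATPase SMARCA4, the core subunit SMARCB1 and BCL7C rose, to 1.14, 1.15 and 1.24 times the level in DMSO. Within the 7 core subunits 1 fell and 1 rose.

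SMARCA4 (BRG1) and SMARCA2 (BRM) are the alternative motors of SWI/SNF. SMARCA4 (ENSG00000127616, chr19:10960932-11079426, GRCh38) was at 557, 602 and 603 CPM in DMSO and at 681, 659 and 667 CPM in FT671. All 3 FT671 libraries were above all 3 DMSO libraries, and the log2 fold change was 0.19 ± 0.0662 (SE; adjusted p = 0.0298, edgeR). SMARCA2 was at 79.3 ± 3.82 CPM (SD, n = 3) in DMSO and 77 ± 2.78 CPM in FT671, with overlapping libraries. Per kilobase of transcript, SMARCA4 accounted for 88.4% ± 0.0901 (SD, n = 3) of the 2 motors together in DMSO and 90% ± 0.22 in FT671. The log2 ratio of SMARCA4 to SMARCA2 counts within a library differed by 0.23 between the groups. For each ratio of 2 paralogs an exact permutation test, two-sided, was run, which with 3 libraries against 3 cannot give a p below 0.1. Of 12 pairs of paralogs, 8 had ratios that did not overlap between the groups, each with p = 0.1 (exact permutation test) and an adjusted p of 0.15 over the 12 pairs. For comparison, the libraries of single genes did not overlap in 30.3% (lower) and 26.8% (higher) of all genes tested, so nothing particular to the pairs is read from this count.

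The core subunits hold the complex together. SMARCB1 (SNF5) was at 133 ± 11.8 CPM (SD, n = 3) in DMSO and 154 ± 2.42 CPM in FT671, a log2 fold change of 0.20 ± 0.0786 (SE; adjusted p = 0.0477, edgeR). Of the exonic bases of its main transcript, 56.3% overlap the gene DERL3 on the other strand, and whether the counting used strand is not given in the sources used here. SMARCD1, an adaptor that contacts transcription factors, was at 147, 147 and 151 CPM in DMSO and at 131, 122 and 127 CPM in FT671, and fell by 0.23 on the log2 scale (adjusted p = 0.0156, edgeR). Its paralog SMARCD2 went from 147 ± 2.78 to 138 ± 2.25 CPM, without passing the test. The scaffold SMARCC1 had the highest counted level per kilobase of all members, 128 RPKM (CPM per kilobase of transcript) in DMSO and 133 RPKM in FT671, and the log2 fold change of its CPM was 0.06 ± 0.0704 (SE). Its partner SMARCC2 had 79.4 and 73.7 RPKM, and the log2 ratio of SMARCC1 to SMARCC2 was 0.17 higher in FT671, without overlap of the libraries.

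SMARCD3 and SMARCE1 stood at the low end. SMARCD3 had 4.07, 4.02 and 3.87 CPM in DMSO and 4.21, 6.47 and 5.79 CPM in FT671, and its log2 fold change of 0.48 ± 0.21 (SE) did not pass the test (adjusted p = 0.0716, edgeR). Of the exonic bases of its main transcript 31.8% overlap CHPF2 on the other strand, and CHPF2 fell by 2.40 on the log2 scale. SMARCE1 (BAF57) was at 4.7 ± 0.125 CPM in DMSO and 4.31 ± 0.121 CPM in FT671 (SD, n = 3). For SMARCE1, 51.5% of the exonic bases of the main transcript also lie in a readthrough gene on the same strand, ENSG00000264058, and reads that fit both genes are not counted by STAR's gene counting, so the level of SMARCE1 is a lower limit.

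The ARID subunits decide the form of the complex, ARID1A or ARID1B marking BAF and ARID2 marking PBAF. ARID1A (ENSG00000117713, chr1:26693236-26782104) was at 436, 473 and 456 CPM in DMSO and at 312, 297 and 307 CPM in FT671. ARID1B (ENSG00000049618, chr6:156776020-157210779) was at 184, 192 and 185 CPM in DMSO and at 126, 126 and 125 CPM in FT671. Neither gene had a library of one group within the range of the other. ARID1A and ARID1B fell by 0.57 ± 0.067 and 0.57 ± 0.0684 on the log2 scale (SE), with adjusted p-values of 1.04e-05 and 1.24e-05 (edgeR). Their ratio within a library was 1.28 ± 0.03 (log2, SD, n = 3) in DMSO and 1.28 ± 0.03 in FT671, with overlapping libraries (exact permutation test, p = 1). When 1 library was left out, the difference between the groups ranged from -0.02 to 0.02.

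ARID2 showed the largest decrease of the 42 genes. ARID2 (ENSG00000189079, chr12:45729706-45908040) was at 54.8, 53 and 69.1 CPM in DMSO and at 20.8, 19.8 and 25.2 CPM in FT671. The lowest DMSO library was above the highest FT671 library, and the log2 fold change was -1.39 ± 0.13 (SE; adjusted p = 1.56e-06, edgeR), or a level of 0.382 times that in DMSO. Among the 3 ARID genes, ARID2 made up 8.8% ± 1.25 of the counts per kilobase in DMSO and 5.07% ± 0.609 in FT671 (SD, n = 3), while the share of ARID1A went from 67.9% ± 0.924 to 70.7% ± 0.465. These shares use the length of the main transcript. With the union of all exons as length the share of ARID2 was 12.7% in DMSO and 7.46% in FT671.

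The other PBAF subunits fell less or did not pass the test. PBRM1 (polybromo), which binds acetylated histones through a row of bromodomains, was at 85.1, 87 and 100 CPM in DMSO and at 60, 62.8 and 73.2 CPM in FT671. Its libraries did not overlap, and it fell by 0.45 ± 0.0974 on the log2 scale (SE; adjusted p = 0.0015, edgeR). PHF10, a PHD finger subunit, fell by 0.36 ± 0.121 (SE; adjusted p = 0.0239, edgeR) from 49.2 ± 8.9 to 37.8 ± 1.27 CPM. Of the exonic bases of its main transcript 22.4% overlap C6orf120 on the other strand, which fell by 0.63 on the log2 scale. BRD7, the bromodomain subunit of PBAF, was at 90.5 ± 2.42 CPM in DMSO and 86.1 ± 4.62 CPM in FT671, with overlapping libraries. ADCY7 on the other strand overlaps 40.2% of the exonic bases of the main transcript of BRD7, and ADCY7 fell by 0.65 on the log2 scale. Of the 4 PBAF subunits, 3 fell, where 26.5% of all genes tested did so, and this small count was not tested. The BAF subunit DPF2, which takes the place that PHF10 has in PBAF, was at 155 ± 4.37 CPM in DMSO and 163 ± 5.97 CPM in FT671, and the log2 ratio of DPF2 to PHF10 was 0.44 higher in FT671, without overlap. Without DMSO replicate 3, the highest DMSO library of PHF10, this difference was 0.27 and the log2 fold change of PHF10 was -0.23. BRD9, which marks the non-canonical form, had a log2 fold change of -0.17 ± 0.0997 (SE; adjusted p = 0.18, edgeR).

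The BCL7 proteins are small subunits shared by all forms of SWI/SNF, and their 3 genes moved apart. BCL7B (ENSG00000106635, chr7:73536356-73557690) was at 63.7, 57.1 and 51.8 CPM in DMSO and at 28.6, 32.9 and 28 CPM in FT671. It fell by 0.96 ± 0.11 on the log2 scale (SE; adjusted p = 8.54e-06, edgeR), to 0.513 times the level in DMSO. BCL7A fell by 0.48 ± 0.102 (SE; adjusted p = 0.00137, edgeR), from 51.7 ± 2.1 to 37 ± 4 CPM. BCL7C (ENSG00000099385, chr16:30833626-30894302) was at 52.1, 49.6 and 38.3 CPM in DMSO and at 66.6, 57.7 and 52.8 CPM in FT671. The highest DMSO library of BCL7C was just below the lowest FT671 library, and the log2 fold change was 0.31 ± 0.121 (SE; adjusted p = 0.0476, edgeR). Genes on the other strand, MIR762HG and MIR762, overlap 19.7% of the exonic bases of the main transcript of BCL7C. MIR762HG was between 12.4 and 12.7 CPM in DMSO and between 14 and 16.8 CPM in FT671. The log2 fold changes of MIR762HG and MIR762 were 0.26 and 0.46, and neither passed the test. Their part in the counts of BCL7C was not tested.

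Per kilobase, BCL7B made up 33.7% ± 1.37 of the 3 BCL7 genes in DMSO and 18.6% ± 2.2 in FT671 (SD, n = 3). BCL7C went from 52.7% ± 2.24 to 71.1% ± 2.32, and BCL7A from 13.6% ± 1.23 to 10.3% ± 1.4. The log2 ratio of BCL7B to BCL7C within a library was 0.29, 0.20 and 0.43 in DMSO and -1.22, -0.81 and -0.92 in FT671, so that BCL7B counts exceeded BCL7C counts in every DMSO library and were below them in every FT671 library. With the union of exons as length the share of BCL7C was 32.6% in DMSO and 51.4% in FT671, and which of the 2 genes has the higher level in DMSO thus depends on the length used.

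The remaining shared subunits are ACTL6A and SS18. ACTL6A (BAF53A), an actin-like protein also found in the INO80 and TIP60 complexes, fell by 0.34 ± 0.0976 on the log2 scale (SE; adjusted p = 0.0109, edgeR), from 60.7 ± 5.19 to 48 ± 2.93 CPM. MRPL47, which overlaps 6.6% of the exonic bases of its main transcript from the other strand, rose by 0.51. SS18, the subunit fused to SSX in synovial sarcoma, was at 97.4 ± 11.5 CPM in DMSO and 86.9 ± 3.69 CPM in FT671, with overlapping libraries. Single libraries decided several of the SWI/SNF calls. Without DMSO replicate 3 the log2 fold change of BCL7C went from 0.31 to 0.18 and that of SMARCB1 from 0.20 to 0.13. Without DMSO replicate 1 or without any of the 3 FT671 replicates the adjusted p of SMARCA4 was 0.0778 to 0.146 (edgeR), without any 1 of the 6 libraries that of SMARCB1 was 0.0504 to 0.115, and without DMSO replicate 2 or 3 or FT671 replicate 1 or 2 that of BCL7C was 0.0571 to 0.183. The calls of SMARCD1 (without FT671 replicate 2 or 3, 0.0569 to 0.0934), PHF10 (without any FT671 replicate, 0.0611 to 0.0719) and ACTL6A (without DMSO replicate 1 or FT671 replicate 2, 0.0652 to 0.0659) were lost likewise.

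The start regions of 4 SWI/SNF genes are shown because these genes carry the contrasts above: ARID1A and BCL7B fell, and SMARCA4 and BCL7C, a motor and a paralog of BCL7B, rose. They are RefSeq windows of 300 bases (250 before and 50 after an annotated start) on GRCh38.p14, written 5′ to 3′ on the strand of the gene, with CG dinucleotides, the sites of DNA methylation, in capitals. The windows lie at chr1:26695765-26696064 (plus strand) for ARID1A, chr7:73557641-73557940 (minus strand) for BCL7B, chr16:30894028-30894327 (minus strand) for BCL7C and chr19:10960780-10961079 (plus strand) for SMARCA4.
ARID1A: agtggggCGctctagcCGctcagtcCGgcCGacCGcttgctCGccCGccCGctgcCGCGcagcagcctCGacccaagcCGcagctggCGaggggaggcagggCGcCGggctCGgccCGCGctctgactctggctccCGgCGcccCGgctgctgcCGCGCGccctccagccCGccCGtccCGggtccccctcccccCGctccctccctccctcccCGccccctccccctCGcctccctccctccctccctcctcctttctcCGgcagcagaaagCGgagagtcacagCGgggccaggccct
BCL7B: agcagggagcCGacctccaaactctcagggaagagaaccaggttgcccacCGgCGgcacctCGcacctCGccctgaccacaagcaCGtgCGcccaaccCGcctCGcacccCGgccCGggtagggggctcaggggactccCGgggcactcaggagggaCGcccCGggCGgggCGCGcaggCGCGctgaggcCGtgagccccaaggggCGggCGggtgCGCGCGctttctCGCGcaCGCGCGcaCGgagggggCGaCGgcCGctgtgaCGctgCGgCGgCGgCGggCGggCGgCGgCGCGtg
BCL7C: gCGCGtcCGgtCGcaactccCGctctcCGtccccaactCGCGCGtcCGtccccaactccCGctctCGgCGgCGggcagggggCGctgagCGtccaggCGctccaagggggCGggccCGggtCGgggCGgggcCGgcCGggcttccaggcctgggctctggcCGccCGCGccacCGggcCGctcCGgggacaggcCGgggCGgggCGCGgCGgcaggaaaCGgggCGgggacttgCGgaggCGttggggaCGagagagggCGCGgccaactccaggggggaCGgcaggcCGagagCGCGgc
SMARCA4: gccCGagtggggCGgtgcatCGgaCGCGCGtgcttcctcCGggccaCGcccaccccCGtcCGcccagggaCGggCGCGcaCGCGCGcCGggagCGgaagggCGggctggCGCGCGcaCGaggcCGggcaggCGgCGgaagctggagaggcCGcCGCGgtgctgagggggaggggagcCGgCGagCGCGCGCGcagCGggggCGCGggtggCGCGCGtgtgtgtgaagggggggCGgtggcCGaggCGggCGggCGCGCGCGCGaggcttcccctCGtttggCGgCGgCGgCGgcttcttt

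These windows hold 33 (ARID1A), 44 (BCL7B), 45 (BCL7C) and 55 (SMARCA4) CG dinucleotides, against a median of 14 over all 35116 promoter windows and 25 over those of the genes tested. BCL7B has a second window, around another annotated start, with 39. RefSeq windows were matched for 33 of the 42 members, with 50 windows in all. SMARCC1, SMARCC2, ARID2, ACTL6A, CHD6, CHD7, BAZ1A, BPTF and ATRX were not matched. The median CG count was 34 over 20 windows of 14 members that fell, 25 over 7 windows of 6 members that rose and 26 over 23 windows of 13 members not called. Genes have several windows each, and the windows of CHD2 and of the downstream start of SMARCA4 held only 3 and 5 CG dinucleotides. The GC box, GGGCGG on either strand, was in 72% of the members' windows, in 45% of all windows and in 66.9% of the windows of genes tested. The CCAAT box (CCAAT on either strand) was in 26%, 34.6% and 34.9%, the letters CCGGAAG of an ETS site in 10%, 10.3% and 17.8%, and TATAAA in 2%, 11.5% and 5.98% of the same windows. GCGCATG, part of an NRF1 site, was in 0 of the 50 windows, in 4.43% of all windows and in 6.81% of the windows of genes tested. A match of letters describes the window and is not a measured binding site.

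All 8 CHD genes passed the test, 5 lower and 3 higher, with a median log2 fold change of -0.28. Of all genes tested, 26.5% were lower and 23.6% higher. CHD1, CHD2, CHD4, CHD8 and CHD9 fell, and CHD3, CHD6 and CHD7 rose. Each of the 8 had FT671 libraries that did not overlap the DMSO libraries, where 30.3% of all genes tested lay below and 26.8% above.

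CHD1 and CHD2 are found along transcribed genes. CHD1 was at 79.7, 75.7 and 110 CPM in DMSO and at 68.4, 66.9 and 73.2 CPM in FT671, and CHD2 was at 115, 115 and 133 CPM in DMSO and at 93.9, 92.4 and 103 CPM in FT671. DMSO replicate 3 had the highest level of both genes. CHD1 fell by 0.33 ± 0.122 and CHD2 by 0.32 ± 0.0842 on the log2 scale (SE), with adjusted p-values of 0.038 and 0.00646 (edgeR). The log2 ratio of CHD1 to CHD2 differed by -0.01 between the groups, with overlapping libraries (exact permutation test, p = 1), and by -0.07 to 0.09 when 1 library was left out. CHASERR is a noncoding RNA gene that starts upstream of CHD2 and is known to repress CHD2 in cis. It was at 16.1, 15.2 and 14.9 CPM in DMSO and at 42.5, 43.5 and 39.4 CPM in FT671. Its FT671 libraries were far above its DMSO libraries, with a log2 fold change of 1.43 ± 0.106 (SE; adjusted p = 1.82e-07, edgeR). CHASERR shares 121 exonic bases with CHD2 on the same strand, all outside the main transcript of CHD2. Its part in the change of CHD2 was not tested.

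CHD3 and CHD4 are the alternative motors of NuRD, and they moved in opposite directions. CHD3 (ENSG00000170004, chr17:7884796-7912760) was at 103, 103 and 101 CPM in DMSO and at 148, 139 and 148 CPM in FT671. CHD4 (ENSG00000111642, chr12:6570082-6614524) was at 32.2, 29.3 and 29.5 CPM in DMSO and at 22.4, 22.5 and 26.4 CPM in FT671. CHD3 rose by 0.50 ± 0.0712 and CHD4 fell by 0.34 ± 0.111 on the log2 scale (SE), with adjusted p-values of 5.46e-05 and 0.02 (edgeR). The log2 ratio of CHD4 to CHD3 went from -1.75 ± 0.06 to -2.61 ± 0.12 (SD, n = 3), a difference of -0.86 without overlap. The level of CHD4 rests on a small part of the gene. A readthrough gene on the same strand, ENSG00000285238, shares 90.1% of the exonic bases of its main transcript and was listed at 0 in all 6 libraries, and reads that fit both are not counted by STAR's gene counting. The change of CHD4 is therefore that of the reads left to CHD4 alone, and its level cannot be ranked against CHD3. On the other strand, ENSG00000247853 overlaps 7.1% of the exonic bases of the main transcript of CHD4. That gene had a log2 fold change of -0.31 ± 0.0954 (SE), and its part in the counts of CHD4 was not tested.

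CHD6 to CHD9 form a subfamily, of which CHD7 is the gene mutated in CHARGE syndrome and CHD8 a gene linked to autism. CHD7 was at 60.5, 61.7 and 68.4 CPM in DMSO and at 83.9, 88.3 and 94.2 CPM in FT671, a log2 fold change of 0.50 ± 0.0852 (SE; adjusted p = 2.86e-04, edgeR). CHD6 rose by 0.25 ± 0.0798 (SE; adjusted p = 0.0187, edgeR), from 70.7 ± 2.38 to 83.5 ± 4.1 CPM. CHD8 fell by 0.24 ± 0.0769 (SE; adjusted p = 0.0203, edgeR), from 139 ± 6.04 to 118 ± 7.58 CPM. CHD9 was at 78.3, 74.1 and 114 CPM in DMSO and at 62, 66.2 and 69.1 CPM in FT671, and fell by 0.41 ± 0.135 (SE; adjusted p = 0.0213, edgeR), its DMSO replicate 3 standing well above the other two. Within the subfamily 2 genes thus fell and 2 rose.

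Of the CHD calls, those of CHD2, CHD3 and CHD7 were kept in each of the 18 alternatives run. Single libraries ended the others: adjusted p-values (edgeR) reached 0.0687 to 0.12 for CHD1 without DMSO replicate 3 or any FT671 replicate, 0.0684 to 0.0903 for CHD4 without DMSO replicate 1 or FT671 replicate 1 or 2, 0.0815 to 0.0881 for CHD6 without DMSO replicate 1 or FT671 replicate 2 or 3, 0.0751 to 0.113 for CHD8 and 0.0591 to 0.0759 for CHD9 without FT671 replicate 1 or 2. Without DMSO replicate 3 the log2 fold change was -0.16 for CHD1 and -0.21 for CHD9. After the length correction 2 CHD genes, CHD2 and CHD9, were lower and the same 3 higher.

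Of the 7 ISWI genes 1 fell, 1 rose and 5 did not pass the test, and the median log2 fold change was -0.03. Over all genes tested, 26.5% fell and 23.6% rose. SMARCA5 (SNF2H) and SMARCA1 (SNF2L) are the alternative motors. SMARCA5 (ENSG00000153147, chr4:143513702-143557486) was at 160, 149 and 194 CPM in DMSO and at 137, 138 and 124 CPM in FT671, and fell by 0.33 ± 0.0953 on the log2 scale (SE; adjusted p = 0.00986, edgeR). Without FT671 replicate 3 its adjusted p was 0.0688. Genes on the other strand overlap 11.7% of the exonic bases of its main transcript, among them SMARCA5-AS1, which fell by 0.50 on the log2 scale. SMARCA1 (ENSG00000102038, chrX:129446501-129523500) was at 3.24, 1 and 2.76 CPM in DMSO and at 3.32, 4.32 and 4.72 CPM in FT671. Per kilobase it had 0.586 RPKM in DMSO, the lowest of the 42 genes there, and 1.03 RPKM in FT671, where SMARCE1 was lower at 0.837 RPKM. Its log2 fold change of 0.86 ± 0.34 (SE; adjusted p = 0.0492, edgeR) rests on as few as 11 counts in a library. The log2 fold change was 1.35 without DMSO replicate 1 and 0.47 without DMSO replicate 2, and without DMSO replicate 2 or any FT671 replicate the adjusted p was 0.0543 to 0.213. Per kilobase, SMARCA1 was 2.57% ± 1.24 of both motors in DMSO and 5.67% ± 1.2 in FT671 (SD, n = 3).

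The partner subunits of ISWI target the motors to replication foci, the nucleolus or acetylated chromatin, and none of the 5 passed the test. BAZ1A (ACF1) was at 73.3, 75.1 and 104 CPM in DMSO and at 68.2, 75.2 and 61 CPM in FT671, with a log2 fold change of -0.29 ± 0.126 (SE; adjusted p = 0.0668, edgeR). BAZ1B (WSTF), its paralog, was at 349, 332 and 383 CPM in DMSO and at 379, 388 and 405 CPM in FT671, with a log2 fold change of 0.14 ± 0.0728 (SE; adjusted p = 0.122, edgeR). The libraries of each gene overlapped between the groups. The log2 ratio of BAZ1A to BAZ1B within a library did not overlap, at -2.09 ± 0.19 in DMSO and -2.52 ± 0.19 in FT671 (SD, n = 3). BAZ2A (TIP5), which silences ribosomal DNA, was at 399 ± 24.2 and 431 ± 13.4 CPM. BPTF, the large subunit of NURF, was at 154 ± 14.6 and 148 ± 11.6 CPM, and RSF1 at 115 ± 22 and 111 ± 12.1 CPM. After the length correction BAZ1B was 0.26 higher (log2; adjusted p = 0.00296, edgeR), BAZ2A was 0.27 higher (adjusted p = 0.00166), and SMARCA5 lost its call (adjusted p = 0.0533).

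The 3 large ATPases of the INO80 family each went their own way. INO80 (ENSG00000128908, chr15:40978880-41116280), the motor of the INO80 complex, was at 38.2, 33 and 41.8 CPM in DMSO and at 45.6, 49.3 and 43.6 CPM in FT671, and rose by 0.30 ± 0.108 on the log2 scale (SE; adjusted p = 0.0331, edgeR). EP400, the motor of the TIP60 complex, was at 160, 173 and 192 CPM in DMSO and at 153, 149 and 151 CPM in FT671, and fell by 0.21 ± 0.0789 (SE; adjusted p = 0.0404, edgeR). The libraries of both genes did not overlap between the groups, and both adjusted p-values were close to the threshold. The adjusted p of INO80 was 0.0608 to 0.145 without DMSO replicate 1 or 2 or FT671 replicate 1 or 2, and that of EP400 was 0.0521 to 0.135 without DMSO replicate 2 or 3 or any FT671 replicate. SRCAP, which loads H2A.Z into nucleosomes, was at 17.2 ± 1.81 CPM in DMSO and 15.3 ± 0.34 CPM in FT671 (SD, n = 3), with a log2 fold change of -0.18 ± 0.128 (SE; adjusted p = 0.267, edgeR). Of the exonic bases of its main transcript 86.5% also lie in a readthrough gene on the same strand, ENSG00000282034. That gene was listed at 0 in all 6 libraries, so the level of SRCAP, like that of CHD4, is a lower limit.

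ATRX deposits the histone variant H3.3 at repeats and telomeres, and HELLS (LSH) supports DNA methylation. ATRX (ENSG00000085224, chrX:77504880-77786233) was at 27.3, 26.1 and 38.1 CPM in DMSO and at 40.1, 38.1 and 41.2 CPM in FT671. It rose by 0.42 ± 0.132 on the log2 scale (SE; adjusted p = 0.0173, edgeR), although DMSO replicate 3 reached the level of the lowest FT671 library. The adjusted p was 0.0781 to 0.0881 without DMSO replicate 1 or 2 or FT671 replicate 3. HELLS was at 34.3, 32 and 42.4 CPM in DMSO and at 32.1, 38.1 and 35.3 CPM in FT671, with a log2 fold change of -0.02 ± 0.12 (SE) and overlapping libraries.

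Taken by role, 7 of the 17 motors were lower, 7 higher and 3 not called, and of the 25 subunits without a motor 9 were lower, 2 higher and 14 not called, where 26.5% of all genes were lower and 23.6% higher. After the length correction 2 motors were lower and 7 higher, and 7 of the other subunits were lower and 7 higher. The difference between motors and other subunits was not tested. In 2 pairs of alternative motors the calls went in opposite directions: CHD3 rose and CHD4 fell, and SMARCA1 rose and SMARCA5 fell. The calls of CHD4, SMARCA1 and SMARCA5 were lost in 6, 7 and 2 of the 18 alternatives run. Other pairs of motors differed from this: SMARCA4 rose while SMARCA2 did not pass the test, and CHD1 and CHD2 both fell.

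Other genes listed with the same complexes, 67 in all and listed by function, were read from the same fit. Of the 64 that passed the filter, 15 fell, 14 rose and 35 did not pass the test, with a median log2 fold change of 0.04. These shares, 23.4% lower and 21.9% higher, were near the 26.5% and 23.6% of all genes. Among the 12 NuRD partners of CHD3 and CHD4, 5 fell and 2 rose. MBD3, which joins the deacetylase and the motor part of NuRD, was at 36.5, 33 and 30.4 CPM in DMSO and at 10.8, 10.6 and 9.98 CPM in FT671. The libraries of MBD3 were far apart, and its log2 fold change was -1.69 ± 0.123 (SE; adjusted p = 1.63e-07, edgeR). GATAD2B, another scaffold of NuRD, fell by 0.77 ± 0.0841 (SE; adjusted p = 5.66e-06, edgeR), from 158 ± 12.8 to 92 ± 6.2 CPM.

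Among the other SWI/SNF partners 3 of 6 fell and 1 rose, where 26.5% of all genes tested fell and 23.6% rose. DPF1, a paralog of DPF2 best known from neurons, was at 3.17, 3.93 and 2.21 CPM in DMSO and at 8.41, 12.6 and 11.1 CPM in FT671, with a log2 fold change of 1.74 ± 0.216 (SE; adjusted p = 1.83e-05, edgeR). Of 5 genes listed as ISWI partners 2 fell and 2 rose. CECR2, which pairs with the ISWI motors, fell by 1.27 ± 0.169 (SE; adjusted p = 3.29e-05, edgeR), from 15.8 ± 2.45 to 6.23 ± 0.805 CPM. POLE4 rose by 0.94 ± 0.128 (SE; adjusted p = 3.94e-05, edgeR), from 18.2 ± 3.45 to 35.7 ± 1.6 CPM. Although listed here, POLE4 is a small histone-fold subunit of DNA polymerase epsilon rather than of ISWI. Of 27 partners in INO80, SRCAP and TIP60, 5 fell and 5 rose. RUVBL1, an AAA+ ATPase shared by these complexes, rose by 0.59 ± 0.0693 (SE; adjusted p = 1.04e-05, edgeR), from 120 ± 3.27 to 181 ± 3.7 CPM. ACTR6, an actin-related subunit of SRCAP, rose by 1.02 ± 0.187 (adjusted p = 4.66e-04), and MBTD1, a reader in TIP60, fell by 0.73 ± 0.134 (SE; adjusted p = 4.83e-04, edgeR). Of 14 other SNF2 ATPases and partners 4 rose and 0 fell (edgeR). With an unadjusted p under 0.05, 1 of these 14 was lower, and DESeq2 called 0 lower. ACTL6B, CHD5 and INO80B, at no more than 9 counts in any library, were not tested.

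**Figure D3:**
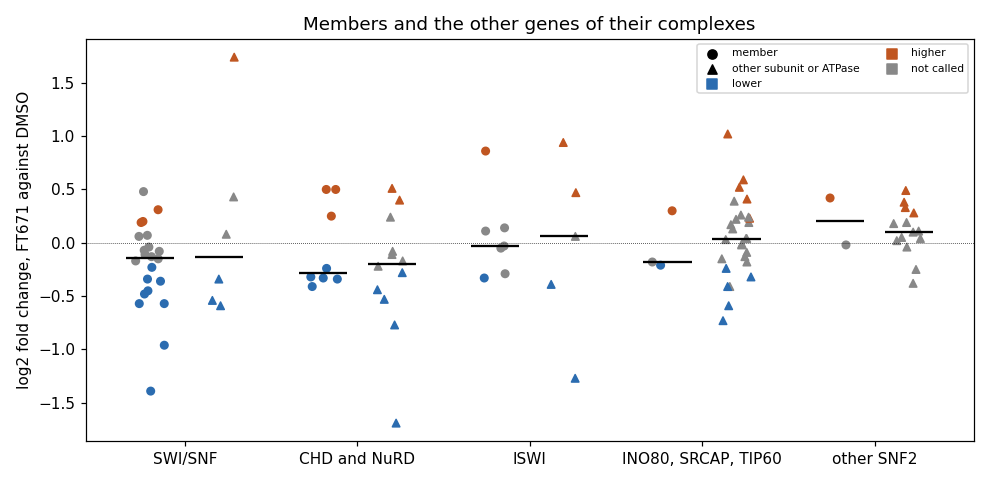
The log2 fold change (FT671 against DMSO) of members (circles) and of other genes listed with the same complexes (triangles), by family, with horizontal bars at the medians and colours for the call at an adjusted p of 0.05. MBD3 is the lowest triangle (-1.69) and DPF1 the highest (1.74), and the lowest median is that of the CHD members (-0.28).

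Remodeller genes are long. The median exonic length was 10976 bases over the members and 4743 bases over all genes tested, 38 of 42 members were longer than that median, and 20 of them belonged to the longest of 10 equal groups of genes. In this series the median log2 fold change was 0.12 in the shortest and -0.13 in the longest of these groups, and over 13872 genes Pearson's r of log2 fold change and log exonic length was -0.115 (Spearman's rho -0.15). Genes share the same libraries, so these are descriptions and carry no p. Within the 42 members r was -0.0215 and rho 0.0417. Over the same members, BCL7B was the shortest gene (3230 bases) and ARID1B the longest (45931 bases), and both fell. What part length had in the change of the members was not tested beyond the correction given above.

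Of the 25 calls, 9 were kept in each of the 18 alternatives run, which changed the scaling, the test, the filter, the correction or the libraries. They were ARID1A, ARID1B, ARID2, PBRM1, BCL7A, BCL7B and CHD2, which fell, and CHD3 and CHD7, which rose. The other 16 lost the call in at least 1 alternative, and none of the 25 changed direction.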

How the data were processed

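For each library the authors deposited 1 whole-number read count per gene, not normalized. Per the study's methods and labels, reads of ribosome-depleted RNA were mapped by STAR (two-pass, hg38), which also gave the counts. The release of the annotation and the strand setting are not given in the sources used here. Of 60609 genes, 60295 had an entry in GENCODE release 44, the source of symbols and exons. Genes were filtered with edgeR's filterByExpr (13895 kept) and scaled by TMM. FT671 was compared with DMSO by edgeR 4.0.16 (quasi-likelihood test, no covariate, R 4.3.3), with Benjamini-Hochberg adjustment over all genes tested. CPM use TMM-scaled totals, and RPKM divide them by the length of the canonical transcript. A readthrough or overlapping gene was scored by the share of canonical exonic bases in its exons. Ratios of paralogs used counts plus 0.5. RefSeq windows gave promoter sequences. DESeq2 1.42.0, Python 3.11.15, pandas 2.3.3, SciPy 1.17.1 and matplotlib 3.10.9 were used besides, and the fits were tested on simulated counts. Members, families, gene and marker lists were chosen with earlier results of these data known. All members could be named. Of the other complex genes, the 4 that rose most and the 4 that fell most, past an adjusted p of 0.05 and at a mean of at least 1 CPM, were named, besides genes overlapping a named gene and USP7. Alternatives were other scalings (DESeq2's size factors, library totals), DESeq2's Wald test, other filters, protein-coding genes alone, a replicate block, corrections for exonic length and GC content (loess, span 0.3), thinning to the smallest total and leaving out each library.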

Additional observations from a re-analysis of the deposited data

How the results depend on the processing

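The count of members that fell (16) was 9 with the exonic length correction, and 8 to 16 without 1 library. The count that rose (9) was 14 with the length correction, 4 with library totals alone or without a filter on low counts, and 3 to 9 without 1 library. At 1e-05 the members lower (2) were 4 with DESeq2's Wald test, the GC correction, library totals alone, no filter or the replicate block (also with GC), 1 with at least 10 counts in every library or protein-coding genes alone, and 0 to 4 without 1 library. At 1e-05 the members higher (0) were 2 with DESeq2's Wald test, the GC or the length correction (each also with the block), 1 without a filter, and 0 to 2 without 1 library. The median of -0.117 became -0.068 with the GC correction, -0.001 with the length correction and 0.011 with the length correction and the block, and ranged from -0.148 to -0.098 without 1 library.

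By family, SWI/SNF members higher (3) were 6 with the length correction (5 with the block), 1 with at least 10 counts, 0 with library totals or no filter, and 0 to 1 without 1 library. CHD members lower (5) were 3 with DESeq2's Wald test, 2 with the length correction, with or without the block, and 1 to 5 without 1 library. ISWI members lower (1) were 2 with the GC correction, no filter or the replicate block, 0 with the length correction, and 0 to 2 without 1 library. ISWI members higher (1) were 3 with the GC or length correction, 0 with DESeq2's Wald test, library totals or thinning, and 0 to 3 without 1 library. INO80 members lower (1) were 0 with DESeq2's Wald test, its size factors, the GC or the length correction, and members higher (1) were 0 with library totals or no filter, both with 0 to 1 without 1 library. The 1 call among ATRX and HELLS was 0 to 1 without 1 library. Other complex genes higher (14) were 22 with the GC correction and the block. Other combinations stayed within 1.5 times their count.

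Among the members, direction turned only for those not called. With the length correction, alone and with the block, SMARCA2 came to 0.077 and 0.084, SMARCC2 to 0.035 and 0.036, SMARCD2 to 0.018 and 0.019, BRD7 to 0.066 and 0.066, BPTF to 0.095 and 0.088, RSF1 to 0.116 and 0.099 and HELLS to 0.128 and 0.116, and SMARCE1 to 0.0021 with the block. The GC correction gave SMARCD2 0.0041, DESeq2's size factors HELLS 0.00014 and thinning HELLS 0.027. Without 1 library BPTF ranged from -0.120 to 0.020, RSF1 from -0.127 to 0.126 and HELLS from -0.096 to 0.081, the upper end being without DMSO replicate 3 in each case. The ratio of ARID1A to ARID1B ranged from -0.019 to 0.019 and that of CHD1 to CHD2 from -0.072 to 0.094 without 1 library. The correlation with length over the members was 0.017 with the span of the gene. The causes were not tested.

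The replicate block gave 17 members lower and 9 higher. Same-numbered libraries deviated together by r of 0.115, -0.0605 and 0.14, so the numbers were not taken to pair the samples, and not every library correlated best with its own number. Under the block the ratios could not give a p below 0.25. Leaving out 11 members that share at least 10% of the exonic bases of their main transcript with other genes left 12 lower and 7 higher of 31. This alternative was chosen after seeing the data, as was the union of exons. Low counts limit SMARCA1, SMARCD3 and SMARCE1 most, and for SMARCE1 reads that also fit its readthrough gene are left out of the counts.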
